A study of Mus musculus with 18 samples.

Results

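The data described here are the gene expression response of wild-type (wt) mouse cells to 24 h of induction from induced pluripotent stem cells (iPSCs) into epiblast-like cells (EpiLCs). They rest on 6 of the 18 RNA-seq libraries of the series, those labelled wt, with 3 libraries at 0 h and 3 at 24 h. The other 12 libraries come from a pair of Hmga2 knockout (KO) clones, with 6 libraries each. The wt cells carry an intact Hmga2 gene and came from 1 iPSC clone, so the 3 biological replicates of each time share that clone. At 0 h the cells grew on inactivated fibroblast feeders in serum medium with leukemia inhibitory factor (LIF) and inhibitors of MEK and GSK3. The 24 h samples were plated on Geltrex, a basement membrane extract, with no feeders, and received Activin A, bFGF and the supplements N2 and B27. Time of induction, medium, substrate and the presence of feeders therefore differed together between the groups and cannot be told apart.

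Naive pluripotency is the state of the epiblast before implantation. It is held in culture by LIF, which acts through the kinase Jak and the factor Stat3, and by inhibitors that block ERK signalling and stabilise β-catenin. When these are withdrawn and Activin A and FGF are supplied, cells leave the naive state and pass through a formative state close to the epiblast after implantation. The naive transcription factors are shut down in this transition, Otx2, Pou3f1 and Fgf5 come on, and the de novo DNA methyltransferases rise, while Pou5f1 (Oct4) is retained.

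The wt libraries held 3466436, 10001297 and 10599720 counts at 0 h (replicates 1, 2 and 3) and 23872837, 19675403 and 20221310 counts at 24 h. Levels are given as CPM, a gene's share of its library in counts per 1000000, with library totals adjusted by TMM factors, and for the 3 replicates in order. A gene was taken as detectable from 3 counts, which corresponds to 0.176 to 0.984 CPM depending on the library and covers counting error only. Replicate 1 at 0 h stood apart: it was the shallowest wt library, and 33.3% of its counts fell on the single noncoding RNA Gm26917, against 11.9% and 15.8% in the other 0 h libraries and 5.57% to 8.81% at 24 h. Several counts are therefore also given without it. Of the 16619 genes tested, 50.7% passed an adjusted p of 0.05 in edgeR's quasi-likelihood test, 26.0% upward and 24.7% downward, and in 57.9% the replicates of the 2 times did not overlap. The median log2 fold change over all genes tested was 0.03. Scaling by library size and not by TMM gave a median of -0.58, and 1587 genes then rose and 5845 fell.

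Naive pluripotency factors fell together at 24 h. Of the 22 listed naive markers tested, 14 fell, 4 rose and 4 did not pass the test, with a median log2 fold change of -3.74 (-3.68 with 2 members near the detection limit at their bound), and the replicates of the 2 times did not overlap for 18 of them. Tfcp2l1, a factor that sustains self-renewal downstream of LIF (ENSMUSG00000026380, chr1:118627945-118685168 of GRCm38), had 1080.4, 912 and 1291 CPM at 0 h and between 29.5 and 30.8 CPM in the 3 libraries at 24 h, a log2 fold change of -5.19 (SE 0.40, adjusted p = 1.01e-07). All 3 replicates at 24 h lay far below the lowest at 0 h. Nanog, a homeodomain factor of the naive network, had 393, 540.2 and 512 CPM at 0 h and 27.5, 19 and 12.0 CPM at 24 h (log2 fold change -4.63, SE 0.53). Esrrb, an orphan nuclear receptor, had 1178, 703 and 936 CPM before and 65.4, 56.7 and 73.3 CPM after (-3.85, SE 0.37). The deepest falls of the list outside genes near the detection limit were those of Tbx3 (-7.36, SE 0.59) and Klf4 (-6.52, SE 0.54), whose 24 h levels lay between 2.35 and 4.46 CPM. Prdm14, which represses DNA methyltransferase genes in naive cells, fell by 5.97 on the log2 scale, from 33.3 to 53 CPM at 0 h to 0.645 to 0.701 CPM at 24 h. The groups did not overlap for any of these factors. Not every naive marker fell: Zfp42 (Rex1) had 38.0, 46.0 and 43.6 CPM at 0 h and 42.6, 40.5 and 31.1 CPM at 24 h, overlapping values with a log2 fold change of -0.16 (SE 0.27, adjusted p = 0.628). Its result depended on the scaling, since Zfp42 was called as a fall with library sizes alone (-0.81). The same held with offsets corrected for exon length and GC content (-0.77), a setting described below. Gbx2, Dppa2, Dppa4 and Mael, 4 genes that the list counts among naive markers, rose by 1.87 to 3.20. Gbx2 had 1.92, and 2.92 without 0 h replicate 1.

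The fall in Klf4 was shared across its gene family. Of the 16 Klf zinc finger factors tested, 12 fell, 1 rose and 3 did not pass, with a median of -2.16. Klf15, known from metabolic control in liver and muscle (chr6:90462576-90475238 of GRCm38), had 33.8, 27.5 and 30.7 CPM at 0 h and 0.587, 0.401 and 0.927 CPM at 24 h (-5.52, SE 0.38, adjusted p = 4.7e-08). Klf5 (-5.20, SE 0.56) and Klf2 (-4.37, SE 0.41) fell to 13.7 CPM or less in every 24 h library. The one member that rose, Klf1, stayed at 1.17 CPM or less and was not called with library sizes alone (1.76).

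Of 12 core pluripotency genes tested, 4 rose (33.3%), 3 fell (25%) and 5 did not pass, near the 26.0% and 24.7% over all genes tested, and with library sizes alone 3 rose and 4 fell. Pou5f1 had 1465, 1079 and 886 CPM at 0 h and 1278, 1286 and 1673 CPM at 24 h, so that the groups overlapped (log2 fold change 0.30, SE 0.25, adjusted p = 0.314), and with library sizes alone its log2 fold change was -0.26. Sox2, its usual partner on DNA, had 349, 247 and 376 CPM and then 55.6, 54.1 and 78.3 CPM, a fall of 2.37 (SE 0.28, adjusted p = 5.59e-06). Sall4 fell by 1.88 (SE 0.40). Lin28a, an RNA-binding protein that blocks let-7 maturation, had 36.7, 73.4 and 84.2 CPM at 0 h and 393, 374 and 485 CPM at 24 h, and Utf1, a chromatin-bound pluripotency factor, rose by 1.93 (SE 0.36).

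Formative and primed markers came up as a group. Of 30 tested, 24 rose, 1 fell and 5 did not pass, with a median log2 fold change of 3.26. Pou3f1 (Oct6), a POU factor of the early postimplantation epiblast (chr4:124656807-124660655 of GRCm38), had 7.22, 3.67 and 5.17 CPM at 0 h and 126, 125 and 185 CPM at 24 h (4.82, SE 0.41, adjusted p = 2.28e-07). Otx2 had 1.31, 4.59 and 4.75 CPM and then 29.9, 41.6 and 57.2 CPM (3.46, SE 0.53). Fgf5, the standard marker of EpiLCs, went from 0, 0.184 and 0.417 CPM to 9.5, 10.7 and 22.2 CPM. No 0 h replicate reached the lowest 24 h replicate for these 3 genes. The ectoenzyme Enpp3 rose by 4.75 (SE 0.29) and the tight junction protein Cldn6 by 3.5 (SE 0.42). All 8 listed markers that are neither transcription factors nor surface proteins or ligands rose, among them Dnmt3a, Dnmt3b and Dnmt3l. The exceptions were 5 transcription factors and the surface proteoglycan Sdc4, which did not pass (-0.42, SE 0.31). Among them, Zic2 had 60.7, 28.6 and 47.9 CPM at 0 h and 18.8, 21.2 and 34.6 CPM at 24 h (-0.87, SE 0.44, adjusted p = 0.111), and Id3 was the one member that fell (-1.45, SE 0.39).

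**Figure D1:**
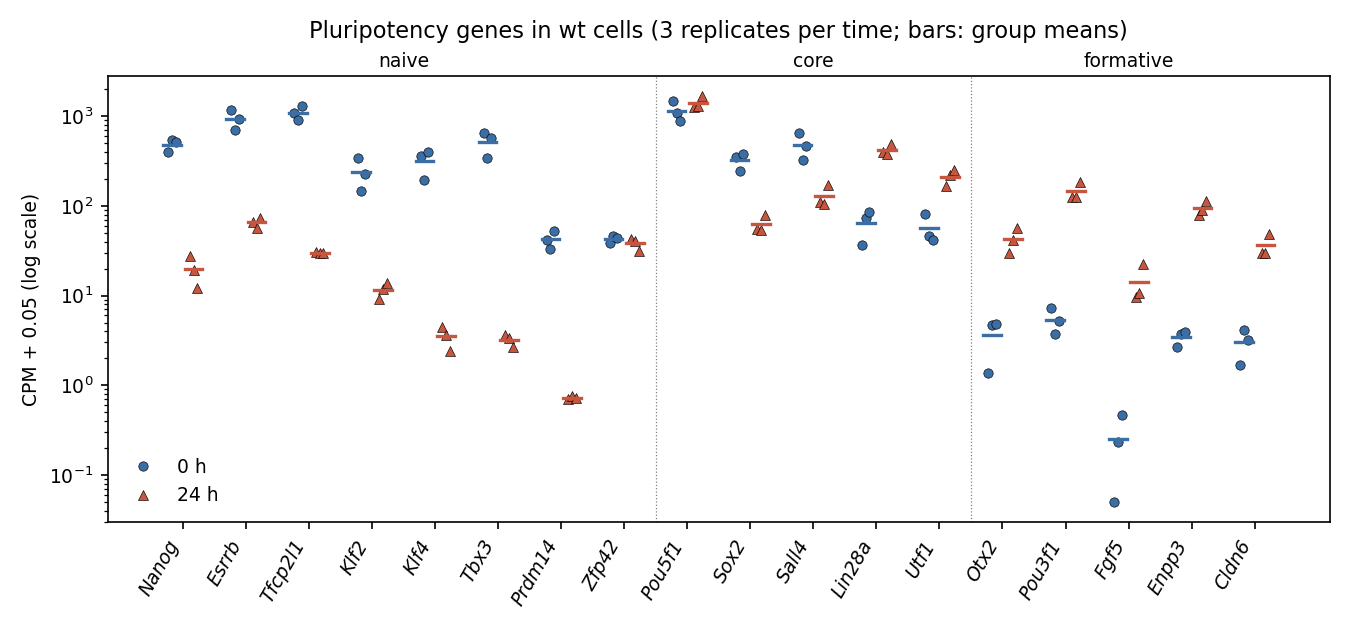
CPM plus 0.05 of 18 pluripotency genes in the 6 wt libraries on a log axis, with circles for the 3 replicates at 0 h, triangles for the 3 at 24 h and a short bar at each group mean. The naive factors Klf4 and Tbx3 drop to 4.46 CPM or less, Pou5f1 and Zfp42 overlap between the times, and the formative genes Fgf5, Otx2 and Pou3f1 rise in all 3 replicates.

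Signalling genes were read by the role of each member in its pathway. In the LIF pathway 8 of 15 tested members fell, none rose and 7 did not pass. The receptor subunits Lifr (-1.28, SE 0.36) and Il6st, also called gp130 (-2.06, SE 0.24), fell. Stat3 itself had 109, 94.6 and 128 CPM at 0 h and 10.2, 8.92 and 13.9 CPM at 24 h (-3.32, SE 0.33, adjusted p = 1.09e-06). Its feedback target Socs3, an inhibitor of Jak kinases (ENSMUSG00000053113), had 132, 108 and 88.7 CPM and then 2.23, 2.71 and 3.83 CPM (-5.22, SE 0.44). The lowest 0 h value of each of these 2 genes was over the highest 24 h value. Bcl3, another target, fell by 4.49 (SE 0.50), and by 3.72 without 0 h replicate 1. The upstream kinases Jak1, Jak2 and Tyk2 did not pass the test. With library sizes alone Jak2 was called as a fall (-1.23), and 11 members of the list fell.

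FGF-ERK members split between those that rose and those that fell: 11 of 24 rose, 7 fell and 6 did not pass, and with library sizes alone 7 rose and 8 fell. Among ligands, Fgf5 rose and Fgf15, absent or at most 3 counts in each 0 h library, was at least 15.3-fold higher at 24 h, while Fgf4 had 319, 343 and 456 CPM and then 223, 206 and 291 CPM (-0.63, SE 0.26, adjusted p = 0.0517). Fgf4 was called as a fall with library sizes alone (-1.24). The receptor Fgfr1 had -1.12 (SE 0.34, adjusted p = 0.011), a call lost without 0 h replicate 1 (-0.82) and with offsets corrected for exon length and GC content (-0.15), and Fgfr2 rose by 1.88 (SE 0.44). The ERK phosphatase Dusp6, a feedback target, had 14.8, 16.2 and 32.4 CPM at 0 h and 106, 108 and 116 CPM at 24 h (2.36, SE 0.29, adjusted p = 7.01e-06). Dusp4 rose by 3.31 (SE 0.45). The ETS factor Etv4 had 10.2, 9.91 and 9.92 CPM and then 139, 159 and 147 CPM (3.89, SE 0.40), whereas its relative Etv5 had 314, 271 and 354 CPM and then 260.2, 261 and 391 CPM, with overlapping groups (-0.04, SE 0.27). The Sprouty inhibitors also parted: Spry2 fell from 159, 97.3 and 144 CPM to 52.1, 49.8 and 60.5 CPM and Spry1 fell by 1.13 (SE 0.29), while Spry4 rose by 1.63 (SE 0.50, no longer called with library sizes alone or without 0 h replicate 2).

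Genes of the Nodal-Activin pathway mostly fell, and Activin A was in the 24 h medium. Of 22 tested, 12 fell, 3 rose and 7 did not pass, and 1 rose with library sizes alone. The type I receptor Acvr1b, which transmits Activin and Nodal, had 72.5, 42.0 and 56.0 CPM at 0 h and 4.81, 5.41 and 10.3 CPM at 24 h (-3.04, SE 0.35, adjusted p = 4.81e-06). Among feedback genes and targets, Lefty2, an extracellular Nodal inhibitor, had 78.7, 74.5 and 190.2 CPM and then 18.7, 14.7 and 20.0 CPM (-2.69, SE 0.41, and -2.10 without 0 h replicate 3). Smad7, an intracellular inhibitor, fell by 2.81 (SE 0.48). Skil (SnoN), a repressor of Smad activity, went the other way, from 17.7, 24.1 and 19.9 CPM to 105, 94.7 and 109.5 CPM (2.32, SE 0.24), with no overlap. The ligand Nodal had 92.8, 52.0 and 103 CPM and then 72.0, 54.6 and 89.1 CPM (-0.20, SE 0.28), and Lefty1 0.75 (SE 0.51, adjusted p = 0.226), so neither passed. In the related BMP list 9 of 15 members fell and 3 rose. Its members included Bmp7 (-4.23, SE 0.56, and -5.05 without 24 h replicate 3) and the inhibitor of differentiation Id4, which had 9.84, 10.2 and 16.2 CPM at 0 h and 0.501 CPM or less at 24 h, while Id1 rose by 2.09 (SE 0.49).

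Wnt pathway genes were measured across withdrawal of a GSK3 inhibitor, which mimics Wnt signalling. Of 33 tested, 16 fell, 8 rose and 9 did not pass, and 4 rose with library sizes alone. The secreted antagonist Sfrp1 had 241, 224 and 269 CPM at 0 h and 10.9, 9.92 and 14.8 CPM at 24 h (-4.36, SE 0.31, adjusted p = 4.86e-08). The target Cdx1, a homeobox gene, had 45.3, 9.09 and 17.5 CPM and then 0.645, 1.10 and 0.679 CPM (-4.88, SE 0.63, and -4.10 without 0 h replicate 1), and the feedback gene Axin2 44.3, 12.5 and 21.4 CPM and then 9.21, 7.81 and 7.91 CPM (-1.61, SE 0.43). For these 3 genes no 24 h replicate reached the lowest 0 h replicate. The DNA-binding effectors exchanged places: Tcf7l1 (Tcf3), a repressor of naive genes, had 111, 40.2 and 43.3 CPM at 0 h and 6.92, 7.91 and 7.47 CPM at 24 h (-3.11, SE 0.70, and -2.52 without 0 h replicate 1), whereas Lef1 had 14.4, 4.5 and 6.0 CPM and then 73.6, 73.1 and 109.8 CPM (3.47, SE 0.65). The ligand Wnt8a rose by 3.72 (SE 0.51) to between 4.21 and 5.69 CPM. Myc, counted among Wnt targets, among formative markers and among immediate early genes, had 9.84, 2.75 and 5.34 CPM at 0 h and 58.8, 59.6 and 68.2 CPM at 24 h (3.5, SE 0.43, adjusted p = 7.53e-06). Its relative Mycl fell by 2.00 (SE 0.37), Mycn had -0.51 (SE 0.38), and Mnt, which opposes Myc at shared sites, fell by 2.85 (SE 0.52).

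**Figure D2:**
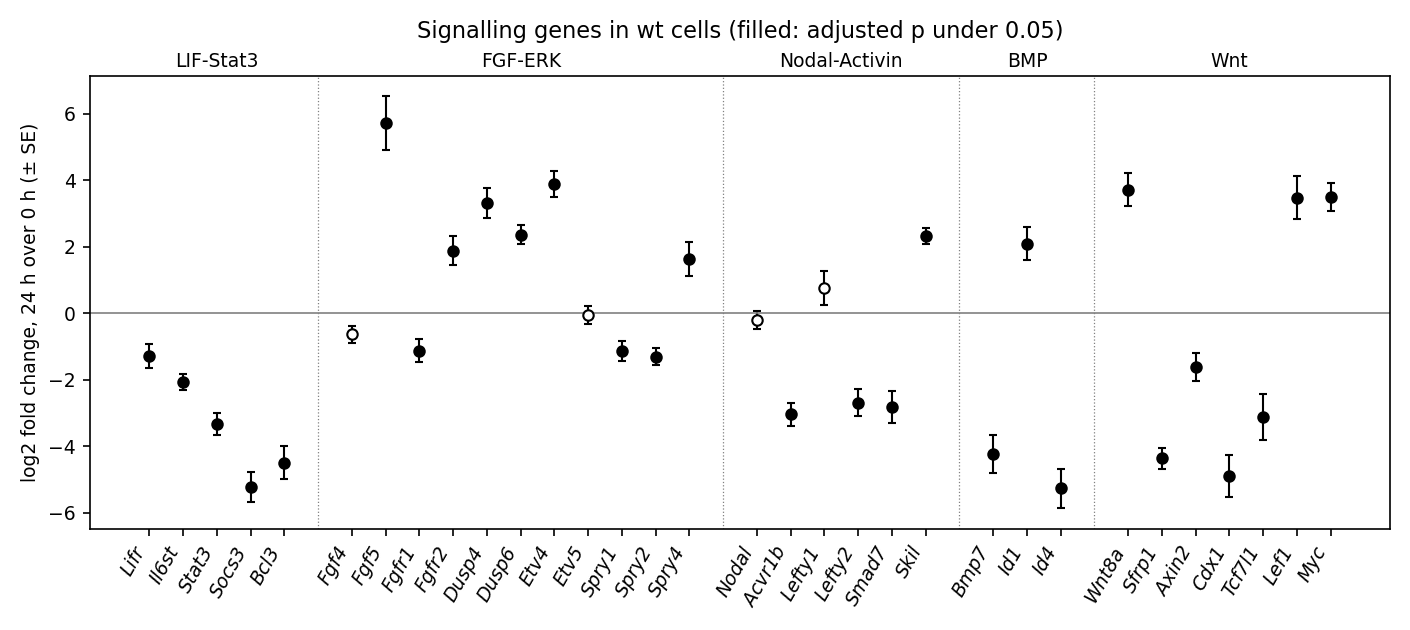
Log2 fold change of 24 h over 0 h in wt cells for 32 signalling genes grouped by pathway, from edgeR's quasi-likelihood fit, with bars of 1 standard error. Filled points passed an adjusted p of 0.05 and open points did not. Socs3, Id4 and Cdx1 lie at the low end, and Fgf5, Etv4 and Wnt8a at the high end.

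Immediate early genes, which are switched on within minutes of growth factor, stress or handling, were lower after 24 h. Of 25 tested, 16 fell, 4 rose and 5 did not pass, with a median of -1.18, and with library sizes alone or without 0 h replicate 2 the number that rose was 1. Egr1, a zinc finger factor downstream of ERK and serum response factor, had 21.3, 13.4 and 88.2 CPM at 0 h and 1.17, 0.801 and 1.17 CPM at 24 h (-5.27, SE 1.34, adjusted p = 0.0036, and -3.99 without 0 h replicate 3). Its paralog Egr2 was at most at 1 count in each 24 h library and was at least 5.55-fold lower, with 0.328, 0.0918 and 3.25 CPM at 0 h. Without 0 h replicate 3 Egr2 was no longer called (-1.59), and its bound of 0.951-fold then showed no fall. Fosb had 3.61, 2.57 and 13.8 CPM at 0 h and was at least 30.2-fold lower at 24 h, or at least 14-fold lower without 0 h replicate 3. Egr1, Egr2, Fosb and Atf3 were each highest at 0 h in replicate 3, where Atf3 had 22.5 CPM against 5.25 and 6.15 CPM in replicates 1 and 2. Jun fell by 2.43 (SE 0.47), while Srf, the factor that binds CArG boxes, had 0.66 (SE 0.23), a call lost with library sizes alone (0.07), without 0 h replicate 2 and without 24 h replicate 3. The promoter of Egr2 is shown because it holds such a box, in capitals, as do the windows before 4 of the 5 start sites that RefSeq lists for the gene. Some of these windows overlap and hold the same box, so they are not all separate occurrences. The 250 bases before the start site farthest along the plus strand are printed (RefSeq, GRCm38.p6, chr10:67537680-67537929, with the first base of the box 133 bases before the start).
Egr2: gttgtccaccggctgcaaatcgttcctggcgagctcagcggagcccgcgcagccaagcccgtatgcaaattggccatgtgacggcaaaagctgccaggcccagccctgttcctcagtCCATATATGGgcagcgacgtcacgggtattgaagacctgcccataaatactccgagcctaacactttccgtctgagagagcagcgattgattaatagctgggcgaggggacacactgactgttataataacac
Of 18 immediate early genes with a promoter in the RefSeq table, 3 held a CArG box on either strand (16.7%: Egr2, Srf and Zfp36), against 1.38% of the 10926 protein-coding genes tested that have a promoter and 1.47% of all 32851 promoters. It was 1 of 7 motifs searched, and a match is a stretch of letters and not a measured binding site.

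DNA methylation genes divided by function. Of the 5 writers tested, 3 rose and 2 did not pass. Dnmt3a had 43.6, 25.8 and 31.2 CPM at 0 h and 498, 519 and 659 CPM at 24 h (4.07, SE 0.36, adjusted p = 3.15e-07), Dnmt3b rose by 3.45 (SE 0.37) and the cofactor Dnmt3l by 2.88 (SE 0.31). The maintenance enzyme Dnmt1 had 451, 283 and 279.7 CPM and then 237, 273 and 355 CPM, with overlapping groups (-0.23, SE 0.26), and its partner Uhrf1 -0.21 (SE 0.29). With offsets corrected for exon length and GC content Dnmt1 passed in the other direction, as a rise (0.50). Of 5 erasers, 4 fell and 1 rose, and none rose without 0 h replicate 1. The oxidising enzymes fell together: Tet2 had 435, 410.2 and 443 CPM at 0 h and 128, 99.6 and 57.8 CPM at 24 h (-2.18, SE 0.33), Tet1 fell by 1.46 (SE 0.39) and Tet3 by 2.29 (SE 0.47). The groups were separate for each of the 3 Tet genes.

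Germline genes that are held silent by DNA methylation in somatic cells were mostly higher at 24 h. Of 17 tested, 14 rose, 1 fell and 2 did not pass, with a median of 1.87, and with library sizes alone 8 rose. Most stayed at low levels. Tex11, an X-linked meiotic gene, had 0.656, 2.20 and 1.08 CPM at 0 h and 15.4, 10.4 and 6.36 CPM at 24 h (2.89, SE 0.52, adjusted p = 0.000257, and 3.48 without 0 h replicate 2). Mael, of the piRNA pathway, had 0.656, 2.20 and 1.42 CPM and then 15.3, 15.7 and 12.8 CPM (3.20, SE 0.50). The groups did not overlap for either gene. By contrast, 6 of 9 genes tested from the list for primordial germ cell specification fell and 1 rose. The receptor Kit had 119.7, 136 and 174 CPM at 0 h and 8.62, 6.21 and 4.76 CPM at 24 h (-4.45, SE 0.31), Tfap2c fell by 4.04 (SE 0.50) and Prdm1 (Blimp1) by 2.74 (SE 0.28). Of 31 Polycomb genes tested, 3 rose and 9 fell, so that 38.7% were called against 50.7% of all genes, and with library sizes alone 14 fell. The core PRC2 subunits Ezh2 (0.58, SE 0.24, adjusted p = 0.0513), Suz12 (-0.28, SE 0.21) and Eed (0.75, SE 0.32) did not pass, while the PRC1 member Pcgf2 (-2.24, SE 0.42) fell. With library sizes alone Suz12 was called as a fall (-0.90), and Ezh2 (-0.07) and Eed (0.08) again did not pass.

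Few lineage markers rose by 24 h. Of 14 streak and mesendoderm genes, 9 were too low to be tested in any line, 3 of the other 5 fell and none rose, and without 0 h replicate 1 the number that fell was 1. Eomes, a T-box factor of the streak, had 15.4, 6.79 and 12.0 CPM at 0 h and 1.88, 1.70 and 1.67 CPM at 24 h (-2.67, SE 0.36, adjusted p = 1.95e-05). In the primitive endoderm list 7 of 15 fell and 1 rose, and the summed level was 717, 459.9 and 502 CPM at 0 h and 239, 268 and 393 CPM at 24 h. Gata6 had 0.328, 0.0918 and 0.0834 CPM and then 0.411, 0.200 and 0.309 CPM, which is 1 count in each 0 h library and 2 to 7 counts in each 24 h library, and did not pass. The neural gene Pax6 was at least 2.32-fold higher, at 0.494 to 2.00 CPM, or at least 1.48-fold without 24 h replicate 2. The neural adhesion molecule Ncam1 fell by 4.04 (SE 0.35) from between 32.7 and 59.7 CPM. Of 13 genes tested from the list of the state that resembles 2-cell embryos, Eif1a alone passed, upward (1.59, SE 0.50), and it was no longer called without 0 h replicate 1 (1.22), without 24 h replicate 1 (1.11) or with library sizes alone (0.91).

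Feeder fibroblasts were part of the 0 h cultures alone, and their markers were high there. Of 29 markers tested, 20 fell, 2 rose and 7 did not pass, with a median of -2.59, and without 0 h replicate 1, 21 fell and 1 rose. Their summed level was 883, 657 and 340.5 CPM at 0 h and 175, 141 and 180.0 CPM at 24 h, a ratio of the means of 3.79. The SD of this sum was 272 CPM at 0 h and 21.1 CPM at 24 h. Col1a1, the main chain of type I collagen (ENSMUSG00000001506, chr11:94936224-94953042 of GRCm38), had 166, 79.7 and 27.1 CPM at 0 h and 3.52, 1.90 and 3.83 CPM at 24 h (-4.84, SE 1.05, adjusted p = 0.00118, and -4.13 without 0 h replicate 1). Acta2, smooth muscle actin, had 84.0, 37.2 and 38.4 CPM and then 2.35, 1.70 and 1.30 CPM (-4.87, SE 0.52). Thbs1, a matrix glycoprotein, fell by 3.77 (SE 0.50). Dcn (decorin), a marker that defines many fibroblasts, went against the list. It had 0 counts in all 3 libraries at 0 h and 8.33, 4.61 and 4.45 CPM at 24 h, at least 11.5-fold higher. Lum, another such marker, had at most 1 count in each 0 h library and did not pass (1.85). Its log2 fold change ranged from 0.87 to 4.36 with 1 library left out. In bulk RNA, fewer cells of a type and less RNA of those genes per cell cannot be told apart. How far feeder RNA contributes to other genes that fell was not tested.

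Matrix genes as families fell with the feeder markers. Of 34 collagens tested, 22 fell, 3 rose and 9 did not pass, with a median of -1.94, and without 0 h replicate 1, 21 fell and 5 rose. Of 11 laminin chains, 8 fell, 1 rose and 2 did not pass, with a median of -2.44. Several of these are chains of basement membrane rather than of fibroblast matrix. Lama1, the laminin chain of the early embryo's basement membrane, had 215, 100.1 and 160 CPM at 0 h and 2.87, 1.6 and 2.78 CPM at 24 h (-6.0, SE 0.49, adjusted p = 1.88e-07), and Lamb2 fell by 3.53 (SE 0.42). Fibronectin, Fn1, gave the largest loss in mean level of all genes meeting the naming criteria, from 3699, 1870 and 3628 CPM to 202, 166 and 208 CPM (-4.0, SE 0.64). Col6a5 went up, from at most 1 count in each 0 h library to 16.8, 21.8 and 8.15 CPM, at least 31.0-fold. Endothelial and macrophage markers were checked in the same way. The endothelial sum was 165, 169 and 225 CPM at 0 h and 56.8, 64.0 and 58.9 CPM at 24 h, made mostly of Pecam1, which pluripotent cells also express, and of Vwf. Of 6 endothelial markers tested 2 fell, 2 rose and 2 did not pass. Those that rose were Kdr, from 0, 0.459 and 0.25 CPM to 1.94, 1.7 and 3.21 CPM, and Esam, from at most 1 count in each 0 h library to 6.16, 5.61 and 7.04 CPM, while the defining markers Cdh5 and Emcn had 0 counts in all 6 libraries. Vwf, the clotting factor carrier, had 97.7, 79.7 and 95.2 CPM and then 1.53, 0.401 and 1.48 CPM (-6.24, SE 0.55). The macrophage sum was 7.22, 13.5 and 13.3 CPM and then 22.1, 22.5 and 26.6 CPM, with at most 3 counts of Ptprc, Csf1r or Adgre1 in any library, and 3 of 6 markers tested rose, none of them with library sizes alone.

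**Figure D3:**
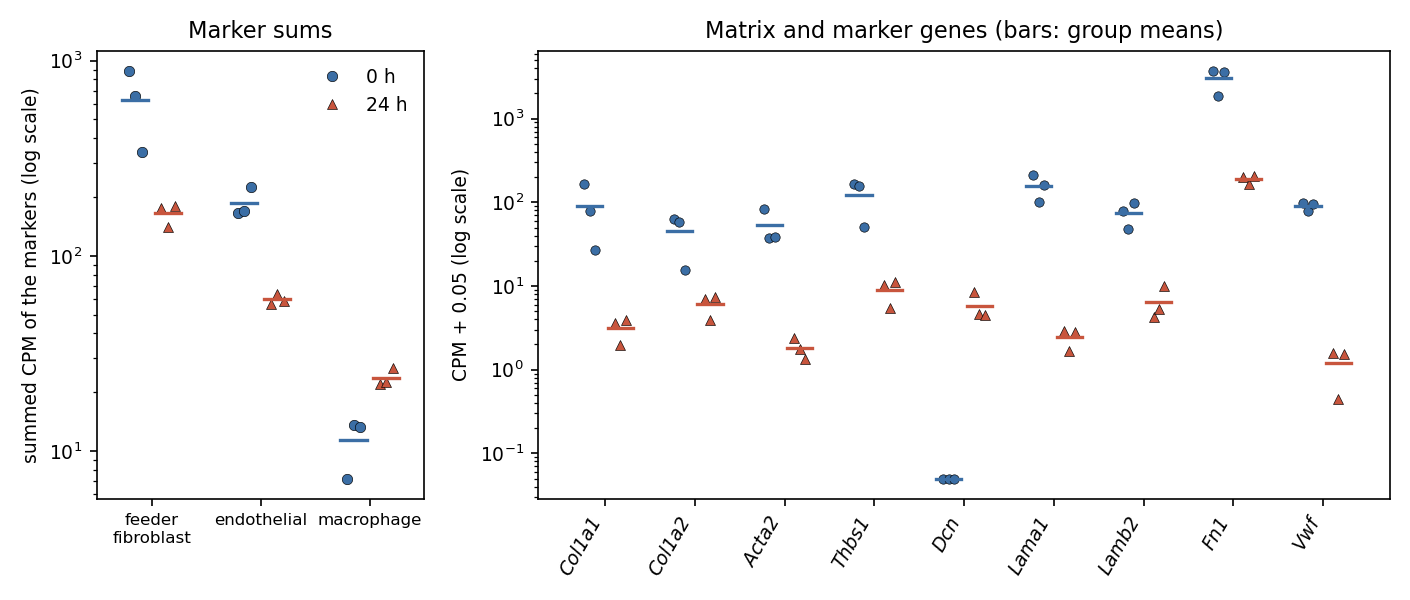
Summed CPM of the feeder fibroblast, endothelial and macrophage markers (left) and CPM plus 0.05 of 9 matrix and marker genes (right) in the 6 wt libraries, both on log axes, with circles for 0 h and triangles for 24 h. Col1a1 spreads from 27.1 to 166 CPM at 0 h, Lama1 and Vwf lie lower at 24 h in every replicate, and Dcn is seen at 24 h alone.

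Epithelial and mesenchymal genes were counted apart. Of 11 epithelial members tested, 6 rose, 1 fell and 4 did not pass, and of 8 mesenchymal members 1 rose, 4 fell and 3 did not pass. Esrp1, a splicing factor of epithelia, had 0, 1.01 and 1.17 CPM at 0 h and 20.8, 26.9 and 40.1 CPM at 24 h (5.00, SE 0.58, adjusted p = 4.61e-06). The adhesion molecule Epcam had 30.2, 33.1 and 36.1 CPM and then 207, 225 and 264 CPM (2.80, SE 0.26). Krt18, an epithelial keratin, rose by 3.80 (SE 0.72). E-cadherin, Cdh1, had 409, 282 and 384 CPM and then 173, 171 and 296 CPM, overlapping values that did not pass (-0.75, SE 0.36, adjusted p = 0.0913), and Cdh2 (N-cadherin) rose by 1.22 (SE 0.39, no longer called with library sizes alone or without 0 h replicate 2). Vim, of the mesenchymal cytoskeleton, did not pass (-0.31, SE 0.34), but was called as a fall with library sizes alone (-0.91).

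Protocadherins of the gamma cluster, adhesion proteins made from many alternative first exons joined to shared last exons, differed by subfamily. All 18 tested members of the a and b subfamilies fell, with a median fitted log2 fold change of -4.0 and of -3.32 with the 8 members that held at most 3 counts in each 24 h library placed at their bound. Pcdhga8 had 7.87, 6.61 and 12.3 CPM at 0 h and 0, 0.501 and 0.185 CPM at 24 h (-5.47, SE 0.69, adjusted p = 9.24e-06, and from -6.53 to -4.80 with 1 24 h library left out), and Pcdhgb6, with 0 counts in all 3 libraries at 24 h, was at least 13.5-fold lower. The c subfamily behaved otherwise: Pcdhgc3 had 38.7, 25 and 26.7 CPM and then 5.46, 7.51 and 7.54 CPM (-2.13, SE 0.42), Pcdhgc5 did not pass (0.28, SE 0.47), and Pcdhgc4 had 0.656, 0.918 and 1.00 CPM and then 23.2, 23.1 and 33.3 CPM (4.86, SE 0.88, adjusted p = 0.000259). These genes overlap and share exons, so the division of reads among them is uncertain. Outside the cluster, Pcdh1 had 0, 1.01 and 2.75 CPM and then 34.6, 33.3 and 52.1 CPM (4.70, SE 0.67, and 5.77 without 0 h replicate 3), and Pcdh19 fell by 3.29 (SE 0.52). All 18 were also called with library sizes alone, without 0 h replicate 1 and with offsets corrected for exon length.

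Genes of glucose uptake fell, and the counts of glycolytic enzymes depended on the scaling. All 4 uptake genes tested fell. The transporter Slc2a3 (Glut3) had 1009, 1289.5 and 2009 CPM at 0 h and 115, 121 and 128 CPM at 24 h (-3.57, SE 0.39, adjusted p = 2.66e-06), and Slc2a1 (Glut1) fell by 1.14 (SE 0.33). Of 16 enzymes, 5 rose, 2 fell and 9 did not pass, but 3 rose and 3 fell without 0 h replicate 1, and 1 rose and 5 fell with library sizes alone. The muscle-type enolase Eno3 rose by 2.65 (SE 0.34), and Ldha had 291, 339.7 and 261 CPM and then 327, 397 and 581 CPM (0.55, SE 0.36), which did not pass and changed sign with library sizes alone (-0.03). The lactate exporter Slc16a3 rose by 2.5 (SE 0.40). Of 8 genes known to respond to low oxygen, 4 fell and 1 rose. Vegfa, the vascular growth factor (chr17:46016993-46032369 of GRCm38), had 115, 56.5 and 108 CPM and then 2.76, 2.91 and 1.73 CPM (-5.24, SE 0.37, adjusted p = 4.8e-08), and Ndrg1 fell by 2.78 (SE 0.45).

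Serine synthesis and the amino acid stress response were lower at 24 h. Of 20 genes tested, 13 fell, none rose and 7 did not pass, with a median of -1.41. The same 13 and 0 were counted without 0 h replicate 1, and 17 and 0 with library sizes alone. The targets of the factor Atf4 gave the deepest falls. Chac1, which degrades glutathione, had 40.3, 46.5 and 99.3 CPM at 0 h and 2.29, 3.51 and 2.04 CPM at 24 h (-4.60, SE 0.43, adjusted p = 5.44e-07). Aldh1l2, of mitochondrial folate metabolism, fell by 4.75 (SE 0.54), the pseudokinase Trib3 by 3.5 (SE 0.42) and Ddit3 (Chop) by 2.99 (SE 0.44). Asns, asparagine synthetase, had 419.5, 601 and 678 CPM and then 107, 156 and 142 CPM (-2.07, SE 0.32). The groups were separate for each of these 5 genes. Atf4 transcripts themselves had 299, 356 and 439.5 CPM and then 249.7, 238 and 262 CPM, which did not pass (-0.55, SE 0.29, adjusted p = 0.119). They were called as a fall with library sizes alone (-1.17). The synthesis enzymes Phgdh (-1.21, SE 0.30) and Psph (-1.15, SE 0.35) fell, the latter not called without 24 h replicate 2 (-1.01). Psat1 (-0.82, SE 0.32) kept its call with 0 h replicate 1 left out but lost it without any 1 of the other 5 wt libraries (-0.97 to -0.69). Threonine dehydrogenase, Tdh, an enzyme characteristic of mouse pluripotent cells, fell by 1.73 (SE 0.26). The promoters of Chac1 and Asns are shown because both hold the letters TGATGNAA, the core of the amino acid response element that Atf4 binds, in capitals. Each is the 250 bases before the start site in RefSeq's GRCm38.p6 table, chr2:119350992-119351241 on the plus strand for Chac1 and chr6:7693210-7693459 on the minus strand for Asns. In Chac1 the element lies on the other strand, so its complement is read, and begins 193 bases before the start, and in Asns it begins 23 bases before it.
Chac1: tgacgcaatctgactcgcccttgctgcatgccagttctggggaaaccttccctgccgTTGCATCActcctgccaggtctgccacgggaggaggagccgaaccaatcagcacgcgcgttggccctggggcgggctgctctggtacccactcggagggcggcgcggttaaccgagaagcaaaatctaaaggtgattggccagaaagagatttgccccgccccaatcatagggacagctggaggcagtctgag
Asns: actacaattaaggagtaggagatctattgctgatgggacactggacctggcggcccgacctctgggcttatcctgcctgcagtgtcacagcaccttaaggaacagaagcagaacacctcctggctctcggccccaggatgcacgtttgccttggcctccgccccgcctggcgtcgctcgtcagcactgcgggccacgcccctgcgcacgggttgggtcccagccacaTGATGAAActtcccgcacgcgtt
Of 17 genes of the list with a searched promoter, 3 held these letters on either strand (17.6%: Chac1, Asns and Slc7a11). The share was 2.42% of the protein-coding genes tested with a searched promoter and 3.45% of all promoters searched. Chac1 and Asns fell, and Slc7a11 did not pass (-0.60, SE 0.58).

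Cholesterol synthesis moved up. Of 20 enzymes tested, 15 rose, none fell and 5 did not pass, and over all 26 listed genes 17 rose and 1 fell, with a median of 1.08. Over the 26 genes, 17 rose and 1 fell also without 0 h replicate 1, and 6 rose and 2 fell with library sizes alone. Hmgcs1, which makes HMG-CoA, had 26.2, 56.3 and 34.3 CPM at 0 h and 169.8, 172 and 179 CPM at 24 h (2.14, SE 0.34, adjusted p = 7.25e-05). Idi1, an isomerase of the isoprenoid branch, had 5.90, 15.5 and 8.59 CPM and then 132, 91.4 and 55.0 CPM (3.17, SE 0.47), and Fdps, farnesyl diphosphate synthase, rose by 2.06 (SE 0.34). All 3 replicates at 24 h were above all 3 at 0 h for these 3 genes. Transcripts of the master regulator Srebf2 went the other way, from 294, 143 and 159.6 CPM to 56.3, 48.3 and 67.3 CPM (-1.79, SE 0.46). The Hmgcs1 promoter is shown because it holds the letters TCACNCCAC, a sterol response element, in capitals, 137 bases before the start in chr13:119690101-119690350 on the plus strand of GRCm38.p6 (RefSeq).
Hmgcs1: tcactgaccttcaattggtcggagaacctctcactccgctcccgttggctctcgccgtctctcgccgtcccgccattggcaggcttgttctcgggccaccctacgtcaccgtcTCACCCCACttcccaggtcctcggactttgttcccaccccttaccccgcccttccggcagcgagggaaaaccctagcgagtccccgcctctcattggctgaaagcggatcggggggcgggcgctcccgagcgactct
Hmgcs1 was the only 1 of 18 cholesterol genes with a searched promoter that held those letters (5.56%). The share was 1.30% of the protein-coding genes tested with a searched promoter and 1.05% of all promoters searched.

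Genes of the machinery for making and degrading proteins rose in large numbers by small amounts. Of 84 cytosolic ribosomal proteins tested, 69 rose, none fell and 15 did not pass, with a median log2 fold change of 1.16. Of 78 mitochondrial ribosomal proteins, 71 rose and 7 did not pass, with a median of 1.25. Of 39 proteasome subunits and activators, 32 rose and 7 did not pass, with a median of 1.65. Pseudogene symbols and genes of like symbol that encode kinases, assembly chaperones or other proteins were left out of these counts after the values were seen. Of 49 nuclear genes of the respiratory chain, 34 rose and 15 did not pass, with a median of 0.96. Rplp1, a stalk protein of the large subunit, had 1339, 1836 and 1216 CPM at 0 h and 4059, 5225 and 3394 CPM at 24 h (1.53, SE 0.36, adjusted p = 0.00193). Rpl39l, a paralog first known from testis (chr16:10170226-10174911 of GRCm38), had 12.5, 16.7 and 9.59 CPM and then 161, 116 and 82.2 CPM (3.21, SE 0.42), the largest rise among the ribosomal genes tested. Psmd12, a subunit of the proteasome lid, had 19, 47.9 and 28.0 CPM and then 215, 242 and 179.7 CPM (2.73, SE 0.34). Psmb10, an immunoproteasome protease, rose by 2.92 (SE 0.39) to between 35.1 and 47.1 CPM. Cox7c, of complex IV, had 45.3, 168 and 92.2 CPM and then 594, 536 and 424 CPM (2.34, SE 0.49). By contrast, of the 15 genes of the mitochondrial genome 1 rose and 3 fell. None rose without 0 h replicate 1, and the number that fell ranged from 0 (without 24 h replicate 3) to 3 with 1 library left out. These counts of rises depended on the scaling: with library sizes alone they were 8 of 84, 24 of 78, 21 of 39 and 9 of 49, in the order given above, and without 0 h replicate 1 they were 37, 62, 30 and 26.

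Most of these genes are short, and in these libraries short genes rose more than long ones. Protein-coding genes were divided by exon length into 5 groups of equal size. In the group with the shortest exons, up to 2401 bases, the median log2 fold change was 0.67 and 40.3% of 2810 genes rose, while in the group with the longest, from 7555 bases, it was -0.45 and 17.9% of 2809 rose. The medians of the 3 groups between were 0.19, -0.03 and -0.21. Over 5 groups of GC content the median ran from 0.55 in the lowest group to -0.42 in the highest. The median exon length was 1736 bases for the cytosolic ribosomal proteins, 2394 for the mitochondrial ones, 2800 for the proteasome and 1908 for the respiratory chain, against 4360 over all protein-coding genes. Offsets fitted to the trend with length in each library, a setting added after the data were seen, reduced this trend but did not remove it. The medians of the 5 length groups then ran from 0.28 in the shortest to 0.01 in the longest. In that setting 52 of 84, 63 of 78, 31 of 39 and 24 of 49 genes rose, in the same order of gene groups. The medians of these gene groups were 0.87, 1.14, 1.48 and 0.65. The naive and formative lists had medians of -3.49 and 3.00 in that setting.

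**Figure D4:**
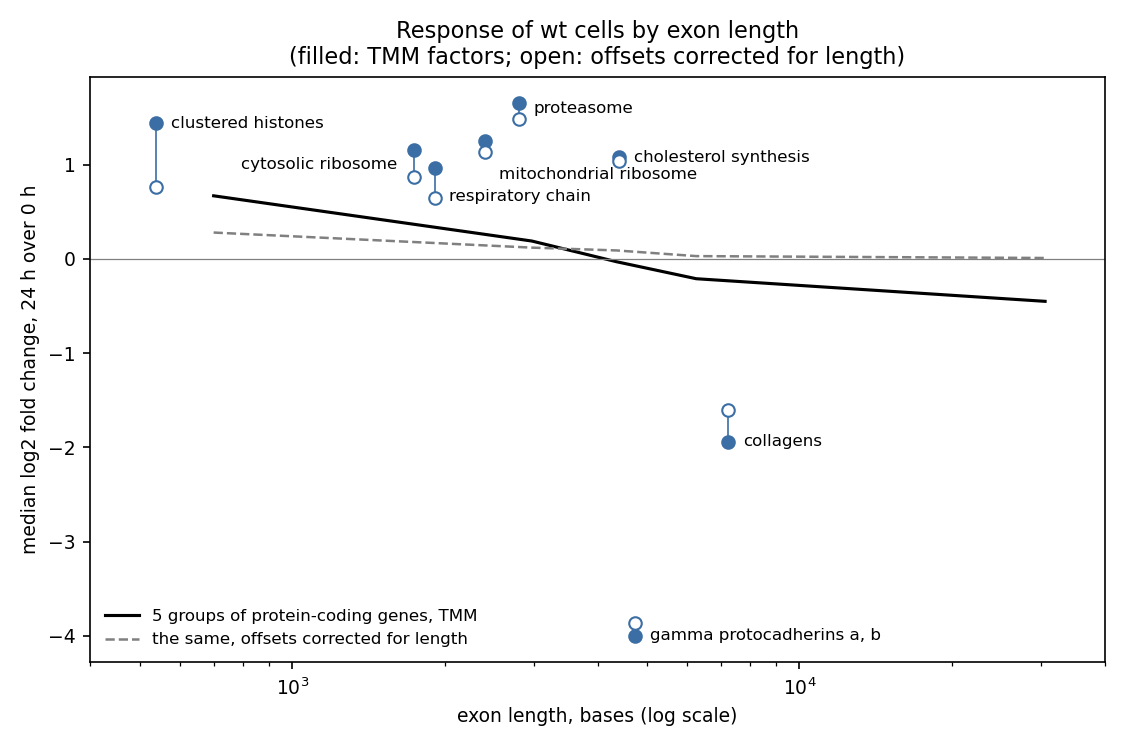
Median log2 fold change of 24 h over 0 h in wt cells against exon length on a log axis, for 5 groups of protein-coding genes (lines, at the middle of each group on the log scale, solid with TMM factors and dashed with offsets corrected for exon length) and for 8 gene groups at their median length (labelled points). Filled points use TMM factors, and open points offsets corrected for exon length. The solid line falls from 0.67 to -0.45, and the proteasome and mitochondrial ribosomal groups lie above both lines.

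Of 20 DNA replication genes tested 15 rose and none fell, and of 11 mitotic genes 7 rose and none fell, but with library sizes alone 3 of the 20 and 3 of the 11 rose. Ribonucleotide reductase Rrm1 had 44.0, 75.7 and 48.1 CPM at 0 h and 163, 230.3 and 196 CPM at 24 h (1.81, SE 0.28), and Cdc20, an activator of the anaphase-promoting complex, rose by 1.93 (SE 0.24). Of 15 G1 genes 6 rose and 6 fell, but 3 rose and 7 fell with library sizes alone, and 6 rose and 3 fell with offsets corrected for exon length. Cyclin E1, Ccne1, had 39.4, 27.8 and 26.0 CPM and then 193, 211 and 282 CPM (2.89, SE 0.30, adjusted p = 1.43e-06). The kinase inhibitors went in opposite directions: Cdkn1b (p27) had 39.4, 42.0 and 47.6 CPM and then 4.93, 3.61 and 4.14 CPM (-3.34, SE 0.23, adjusted p = 4.7e-08), and Cdkn1c (p57) had 3.94, 1.47 and 1.5 CPM and then 38.5, 35.8 and 42.5 CPM (4.28, SE 0.59). The groups of both inhibitors were separate. Over the 57 cell cycle genes 30 rose and 8 fell, and with library sizes alone 9 rose and 13 fell, so the direction of the list as a whole rests on the scaling. Of the 65 genes of the histone clusters tested, 48 rose, 1 fell and 16 did not pass, with a median of 1.44. Those that did not pass included all 6 linker histone genes of the H1 class tested, Hist1h1a to Hist1h1e and Hist1h1t. Of these, Hist1h1t (0.96) was called as a rise without 0 h replicate 2 (1.58). The core histone gene Hist1h4a had 228, 415 and 361 CPM and then 1593, 3474 and 1313 CPM (2.67, SE 0.49, and 2.08 without 24 h replicate 2). With offsets corrected for length 31 histone genes rose, and with library sizes alone 27. Histone genes are near-identical copies whose reads may be shared.

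Apoptosis genes were mixed, with 12 of 32 rising and 8 falling, and 3 rising and 11 falling with library sizes alone. The initiator caspase Casp9 had 32.5, 26.9 and 33.2 CPM at 0 h and 5.63, 4.11 and 7.91 CPM at 24 h (-2.38, SE 0.29). Hrk, a sensitiser of the Bcl2 family, fell by 3.87 (SE 0.44), and its effector Bax rose by 1.61 (SE 0.23). Trp53 did not pass (0.18, SE 0.25) and had -0.40 with library sizes alone. Of 26 imprinted genes tested, 12 rose (46.2%) and 7 fell (26.9%), the latter near the share over all genes. Plagl1, a zinc finger factor of an imprinted network, had 85.9, 39.8 and 71.1 CPM and then 0.704, 0.902 and 0.679 CPM (-6.43, SE 0.59). Nnat rose by 4.53 (SE 0.56) and Mest, from 13.4, 11.0 and 10.5 CPM to 118, 115 and 142 CPM, by 3.44 (SE 0.38), while Igf2r fell by 2.48 (SE 0.34). The libraries do not separate the parental alleles.

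RNA classes other than messenger RNA were counted by annotated type, against 26.0% of all genes tested that rose and 24.7% that fell. Small nucleolar RNAs rose in 65 of 131 tested (49.6%) and fell in 4 (3.05%), with a median of 1.55. Processed pseudogenes rose in 179 of 761 (23.5%) and fell in 30 (3.94%). Sense intronic RNAs fell in 20 of 74 (27.0%) and rose in 4 (5.41%), with a median of -1.72. The signal recognition particle RNA Rn7s1 held 1.65%, 6.21% and 4.79% of all counts at 0 h and 11.7%, 15.6% and 12.9% at 24 h. The nuclear noncoding RNA Neat1, the scaffold of paraspeckles, had 86.3, 126 and 116 CPM and then 17.3, 16.2 and 11.1 CPM (-2.88, SE 0.35). Small structural RNAs made up 9.48% to 19.6% of the counts at 0 h and 28.5% to 46.2% at 24 h, and protein-coding genes 52.6% to 66.7% and 41.6% to 63.4%. With protein-coding genes alone in the fit, 7675 of 14045 were called, 3737 of them upward.

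Beyond the lists, the largest rises among protein-coding genes with at least 20 CPM included the metallothionein Mt3, a metal-binding protein best known from brain, with 0, 0.367 and 0.0834 CPM at 0 h and 24.5, 20.4 and 22.5 CPM at 24 h (6.82, SE 0.57, and 8.25 without 0 h replicate 2). Vrtn, a gene tied to the number of vertebrae in pigs, had at most 3 counts in each 0 h library and 31.5, 33.7 and 65.7 CPM at 24 h, at least 86.7-fold higher. Crmp1, of axon guidance, rose by 5.08 (SE 0.47). No 0 h replicate of these 3 genes came near the lowest 24 h replicate. Among the largest falls, the melanocyte factor Mitf had 24.3, 29.0 and 33.4 CPM and then 0.645, 0 and 0.371 CPM (-6.23, SE 0.58, and -6.99 without 24 h replicate 1), and the cation channel Trpm1, a known target of Mitf in pigment cells, had 49.5, 68.5 and 72.4 CPM and then 0.469, 0.200 and 0.432 CPM (-7.33, SE 0.53, adjusted p = 4.86e-08). The water and glycerol channel Aqp3 fell by 6.21 (SE 0.64). The largest gains in mean level were in Eef1a1, Hspa8, Actb, Rplp1 and Tuba1b. With library sizes alone Eef1a1 (0.34) and Actb (0.76) were not called, and Eef1a1 was also not called without 0 h replicate 1 (0.77), without 24 h replicate 2 (0.84) or without 24 h replicate 3 (0.95). Hspa8, a constitutive chaperone, had 1625, 1780.2 and 1553 CPM and then 4735, 7345 and 6402 CPM (1.90, SE 0.42). Apoe, a lipid carrier, was among the largest losses, with 1554, 1096 and 1363 CPM and then 244, 281 and 354 CPM (-2.19, SE 0.29).

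**Figure D5:**
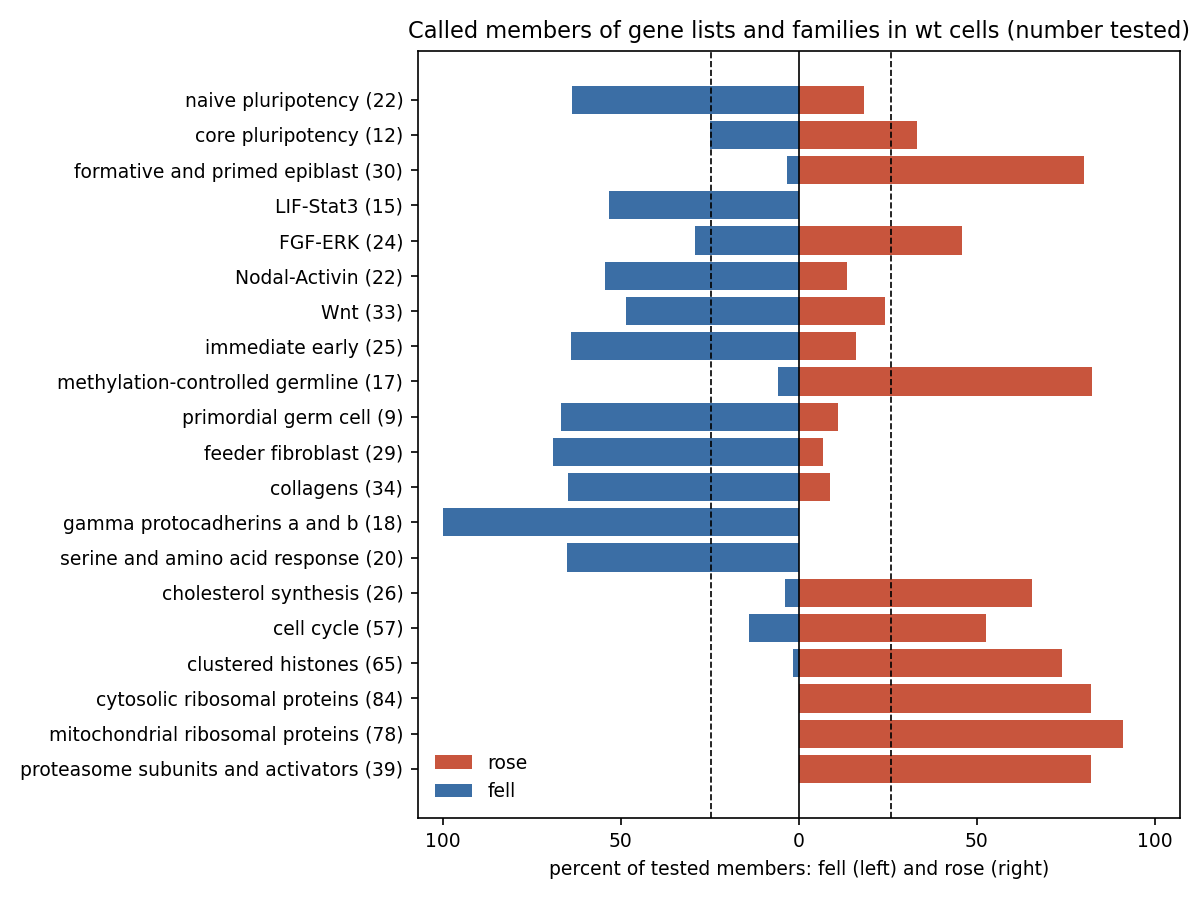
Share of tested members that rose (right, positive) and fell (left, negative) at an adjusted p of 0.05 in wt cells, in percent, for 20 gene lists and families with the number tested beside each name. Dashed lines mark the 26.0% that rose and the 24.7% that fell of all 16619 genes tested. Mitochondrial ribosomal proteins have the highest share that rose (91.0%) and no member that fell, and the gamma protocadherins a and b fell in all 18 members.

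Where the response of wt cells differed from that of the KO clones, the difference itself was tested as an interaction in the same fit, and both clones were set against the same 6 wt libraries. Hmga2 itself, the targeted gene, had 13.3 to 22.4 CPM at 0 h and 5.51 to 5.93 CPM at 24 h in wt cells, 1.75 to 10.2 CPM and 0.871 to 3.67 CPM in KO#1, and 1.84 to 8.25 CPM and 3.02 to 10.5 CPM in the libraries labelled KO#2, so that its transcripts were counted in every library and the KO#2 range at 24 h included that of wt cells. Of the 663 listed genes tested, 8 differed in KO#1, against 0.391% of all genes tested, and 26 in the libraries labelled KO#2, against 1.47%. Among the genes described above, Spry2 fell by 1.30 in wt cells and had a log2 fold change of 1.29 in KO#1 and, in the KO#2 libraries, of 0.84 (adjusted p of the differences 0.00359 and 0.00694). Eomes fell by 2.67 in wt cells and had 0.33 and 1.66, in the same order (adjusted p = 0.0139 and 0.000437). Casp9 fell by 2.38 in wt cells and had -0.50 and -0.36 (adjusted p = 0.0457 and 0.0167).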

How the data were processed

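RNA sequencing counts of 18 libraries were analysed, of which the 6 wt libraries (3 at 0 h and 3 at 24 h) carry the results. The deposited table holds raw counts per gene, which the authors made from stranded total RNA libraries with the nf-core rnaseq workflow (Trim Galore, rRNA removal, STAR on GRCm38, Picard, Salmon and StringTie). The annotation release and the strand setting are not given in the sources used here, so reads of overlapping and antisense genes cannot be separated with certainty. Gene positions, types and exon lengths came from GENCODE M21, which held 45143 of the 45706 gene IDs. Genes were kept by filterByExpr with a minimum count of 10, which left 16619, and were fitted in edgeR 4.0.16 (R 4.3.3) with TMM factors and the quasi-likelihood test over all 18 libraries in 6 groups. Adjusted p-values are Benjamini-Hochberg over all genes tested, and "rose" and "fell" mean an adjusted p under 0.05. The labels name biological replicates but the wt libraries share 1 clone. Fold changes against a group at 0 used a floor of 3 counts. Alternatives were DESeq2 1.42.0, other size factors, other filters, a replicate block, each library left out, and, added after the data were seen, offsets for exon length and GC content. The test was also run on simulated counts of 15566 genes, with a small set changed and all others level between the groups. It recovered 15.1% of 93 genes changed by 1 and 58.8% of 97 changed by 2 on the log2 scale, with 2 false calls. In the data 50.7% of genes were called, so these values do not measure the power or error of this comparison. Figures were drawn with matplotlib 3.10.9. The gene lists and families were chosen with earlier results of these data known. Genes were named as list anchors, the 4 called members of each list with the largest log2 fold change, the 10 largest rises and 10 largest falls and the 5 largest gains and 5 largest losses in CPM among protein-coding genes with at least 20 CPM, and the 2 largest changes of strongly called families. Any other gene named was chosen after its values were seen. A few genes that this rule names are not reported here.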

Additional observations from a re-analysis of the deposited data

Results flagged for a closer look

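The genes below were singled out because their response to induction differed between wt cells and a KO clone by the interaction in edgeR's quasi-likelihood fit (adjusted p under 0.05). Both clones were compared with the same 6 wt libraries. In KO#1 the response minus that of wt cells was 2.59 for Spry2 and 2.23 for Spry1 on the log2 scale, 3.00 for Eomes and 1.87 for Casp9. In the libraries labelled KO#2 it was 2.14 for Spry2, 2.23 for Spry1, 4.33 for Eomes and 2.02 for Casp9. Among naive factors and other Klf genes, the difference in the libraries labelled KO#2 was 4.21 for Tbx3, 2.94 for Klf4, 3.21 for Klf5, 2.11 for Klf2 and 3.11 for Klf15. Each of these 5 genes fell in wt cells. Among signalling genes it was 3.07 for Axin2, 2.77 for Bcl3 and 2.80 for Vegfa. In the amino acid response it was 3.58 for Chac1, 2.43 for Trib3 and 2.71 for Aldh1l2. Among germ cell and neural genes it was 2.39 for Kit, 1.86 for Prdm1 and 1.83 for Ncam1. The cell cycle inhibitors differed in opposite directions, by 1.59 for Cdkn1b and -3.36 for Cdkn1c. The keratin Krt18 had -5.09. The fibroblast marker Dcn had -8.64, a fitted value that depends on the prior count and is no bound, since Dcn had 0 counts in all 3 wt libraries at 0 h.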

How the results depend on the processing

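The number of genes that changed stayed within 1.5 times the 8429 of the fit described above under every alternative run, from 5783 at an adjusted p under 0.01 to 8862 with DESeq2, and with 1 library left out it ranged from 6822 to 8115. The number that rose was 4322, but 1587 with library sizes alone and 2857 with at least 10 counts required in every wt library. That filter left 10005 genes to test. The number that fell was 4107, and 5845 with library sizes alone. Replicate numbers did not pair the libraries: same-numbered libraries had correlations of -0.196, 0.138 and 0.0138, and a fit with the replicate block called 8647 genes. No named gene that was called changed sign with library sizes alone, with the length offsets or with 1 library left out. Named genes that were not called and changed sign with library sizes alone were Pou5f1 (-0.26), Ezh2 (-0.07), Ldha (-0.03), Trp53 (-0.40), Pcdhgc5 (-0.31), Zfp36 (-0.58), Hist1h1a (-0.34), Hist1h1b (-0.07) and Hist1h1d (-0.48). With offsets for exon length they were Etv5 (0.04), Dnmt1 (0.10), Jak1 (0.20), Hist1h1a (-0.42) and Hist1h1b (-0.15), and with offsets for length and GC content Etv5 (0.23), Uhrf1 (0.16), Dnmt1 (0.50), Jak1 (0.16), Tyk2 (0.08), Hist1h1a (-0.20) and Hist1h1d (-0.03). In that last setting Dnmt1 and Pcdhgc5 (0.96) passed, as rises. With 1 library left out, the log2 fold change ranged from -0.31 to 0.06 for Etv5, from -0.45 to 0.00 for Nodal, from -0.45 to 0.00 for Dnmt1 and from -0.01 to 0.43 for Trp53, and Pcdhgc5, Zfp36, Hist1h1c, Hist1h1d and Hist1h1e also changed sign. Without 0 h replicate 1 each lower bound on a rise was about 1.9 times as high, as for Fgf15 (29.2). The causes were not tested. The shallowest library, 0 h replicate 1, sets a detection floor of 0.984 CPM.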
